A study of Mus musculus with 8 samples.

Results

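Villus tip spots are the spots of a spatial RNA assay that held the most RNA of 3 genes known from the top of the intestinal villus. The assay was 10x Visium, which captures RNA in place from tissue laid on an array of barcoded spots, with several cells to a spot, so a spot can hold epithelium, stroma and blood cells together. It was run on 10 µm cryosections of C57BL/6 mouse intestine, and both small and large intestine had 2 sections each, which the study describes as technical duplicates. The titles of all sections begin with WT, for wild type, and their labels name no treatment, intestinal segment, age or number of animals. RNA was counted as unique molecular identifiers (UMIs), each standing for 1 captured RNA molecule. In each small intestine section, spots with at least 500 UMIs were ordered by the UMIs of Ada, Slc28a2 and Apoa4 as a share of all UMIs of the spot, and the top 10% were taken. This gave 209 tip spots of 2094 kept spots (2097 deposited) in section 1 and 257 of 2571 (2574 deposited) in section 2, 466 of the 8947 spots in all 4 sections. The remaining 1885 and 2314 kept spots are called other spots.

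An intestinal villus is a finger of absorptive epithelium over a core of stroma, capillaries and a lymph vessel. Enterocytes are born in the crypt at its base, move up its side while they change what they express, and are shed at the tip. Tip enterocytes are known for purine breakdown, for apolipoproteins packed with dietary fat into chylomicrons, and for adhesion and immediate early genes, while nutrient transporters peak lower on the villus and antimicrobial genes lower still. Ada converts adenosine to inosine, Slc28a2 takes purine nucleosides into the cell, and Apoa4 is an apolipoprotein of chylomicrons.

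The values that chose the spots were spread along a continuous curve with no gap at the threshold. The score, in rule UMIs per 1000000 UMIs of the spot, ran from 7880 down to 941 in the tip spots of section 1 (median 2138) and from 12279 to 1600.3 in those of section 2 (median 2872). The last spot taken in section 1 had 17 rule UMIs among 18068 (a score of 940.9) and the first left out had 9 among 9703 (927.5). In section 2 these were 8 of 4999 (1600.3) and 17 of 10626 (1599.8). The median other spot scored 79.6 and 163, and 36.3% and 22.6% of the kept spots had none of the 3 genes. Tip spots held 71.4% and 66.2% of all rule UMIs of the kept spots. All 3 genes were detected in 196 of 209 (93.8%) and 238 of 257 (92.6%) tip spots, while 5 tip spots of section 2 rested on 1 gene. These values are the choice itself and carry no finding.

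**Figure D1:**
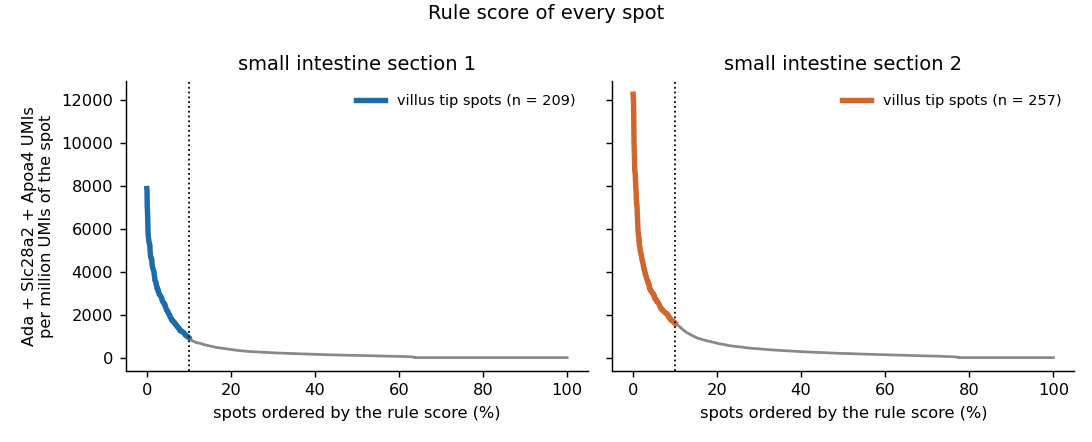
Rule score of every kept spot of both small intestine sections. The x axis gives the spots in order of score as a percentage, the y axis the summed Ada, Slc28a2 and Apoa4 UMIs per 1000000 UMIs of the spot; the coloured stretch marks the 209 and 257 tip spots left of the dotted 10% line. The curves fall without a step at the line, and reach 0 for 36.3% and 22.6% of the spots.

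Section totals were 24356162 and 30091604 deposited UMIs. The median tip spot held 13344 and 12051 UMIs, against 9691 and 8845 in other spots, so tip spots were the deeper ones, and 1 and 12 of them had under 2000 UMIs. Mitochondrial genes took 5.92% and 5.77% of tip UMIs and 5.78% and 5.92% of the UMIs of other spots. Ribosomal protein genes took 3.08% and 2.03% in tip spots against 6.19% and 4.71% in other spots. The 2 sections shared 1224 spot barcodes, 11 of them tip spots in both, and spots were kept apart by section throughout.

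Levels are given in CPM, the UMIs of a gene summed over a group of spots per 1000000 UMIs of that group. Differences are log2 ratios of CPM followed in parentheses by a 95% interval from the exact conditional (Clopper-Pearson) method for Poisson counts. The interval covers counting error only, because spots of 1 section share their piece of tissue and slide and are not replicates. For the same reason no p-value is given, and a difference is described by its value in both sections. In such bulk readings, more cells of a type in a spot and more RNA per cell cannot be told apart. A gene was counted where it had at least 100 UMIs in each section, and called 2-fold higher or lower where its log2 ratio passed 1 or -1 in both sections.

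Tip and other spots were compared to describe what else separates the villus tip from the remaining tissue, which includes crypts, muscle and submucosa. Of 10755 genes counted, the rule genes left out, 348 (3.24%) were at least 2-fold higher in tip spots of both sections and 2262 (21.0%) at least 2-fold lower. In single sections, 422 (3.92%) and 434 (4.04%) genes were higher, and 2644 (24.6%) and 3485 (32.4%) lower. The median gene had a log2 ratio of -0.44 and -0.55, so a gene of average behaviour sat below 0. With ratios centred on that median, 994 genes (9.24%) were higher and 894 (8.31%) lower. The log2 ratios of all counted genes in both sections had a Pearson correlation of 0.88 across genes, which are not independent replicates.

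Creb3l3, the transcription factor that drives Apoa4 and other apolipoprotein genes, was not used by the rule and had 189.6 CPM in tip spots and 23.4 CPM in other spots of section 1, and 299 and 45.3 CPM in section 2 (log2 ratios 3.02 (2.84 to 3.20) and 2.72 (2.60 to 2.85)). It was detected in 179 of 209 and 219 of 257 tip spots. After every spot was thinned at random to 2000 UMIs, to remove the difference in depth, and shallower spots were left out (30 and 135 of the other spots), Creb3l3 was seen in 31.2% of tip spots and 4.10% of other spots in section 1, and in 38.0% and 7.71% in section 2. Its level in single tip spots ran from 0 through a median of 168.8 to 716 CPM in section 1, and from 0 through 255 to 1349 CPM in section 2. Each rule gene was also read in spots chosen by the other pair. In spots chosen by Slc28a2 and Apoa4 alone, Ada was at 1090.1 and 1791 CPM, against 71.2 and 123 CPM elsewhere (log2 ratios 3.94 and 3.87). Slc28a2 had log2 ratios of 3.93 and 3.78 in spots chosen by the other pair of genes, and Apoa4 3.98 and 3.75. Between 88.3% and 94.3% of the spots so chosen were among the tip spots. So Creb3l3 was high in both sections. The rule genes were chosen together with earlier results of these data known. Their values in spots chosen by the other pair therefore describe the rule and carry no separate finding.

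The 10 genes with the highest ratios in both sections (ranked by the section nearer to 0) were Slc23a4, Cldn4, Lama3, Gprc5a, Clca4a, Sprr1a, Creb3l3, Fam83b, Ly6m and Atf3. Promoter sequences are shown for Cldn4, Sprr1a and Atf3, because these 3 of the 9 matched genes (of 13: the leading genes and the 3 rule genes) held a searched motif at their first listed start. Creb3l3 had none at its first start, and 1 copy of TGANTCA at the other listed start (chr10:81098823-81099122). They are RefSeq sequences of the minus strand in build GRCm38.p6, 250 bases before to 50 after the start (300 bases), at chr5:134946885-134947184, chr3:92485832-92486131 and chr1:191183284-191183583. Capitals mark the AP-1 motif TGANTCA in Cldn4 and Sprr1a, and in Atf3 the GATA motif GATAAG and the reverse complement of the cyclic AMP response motif TGACGT.
Cldn4: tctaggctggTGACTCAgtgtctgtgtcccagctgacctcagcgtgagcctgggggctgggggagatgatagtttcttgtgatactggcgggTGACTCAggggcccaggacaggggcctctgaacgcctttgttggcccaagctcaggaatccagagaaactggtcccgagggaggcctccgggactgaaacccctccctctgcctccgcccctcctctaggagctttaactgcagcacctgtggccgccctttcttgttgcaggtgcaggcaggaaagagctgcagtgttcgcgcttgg
Sprr1a: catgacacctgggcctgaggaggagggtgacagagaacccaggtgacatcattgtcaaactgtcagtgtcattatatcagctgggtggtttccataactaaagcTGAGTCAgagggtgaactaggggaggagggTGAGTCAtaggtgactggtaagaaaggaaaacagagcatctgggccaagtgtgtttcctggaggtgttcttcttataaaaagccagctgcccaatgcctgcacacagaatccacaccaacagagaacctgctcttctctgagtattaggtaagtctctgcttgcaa
Atf3: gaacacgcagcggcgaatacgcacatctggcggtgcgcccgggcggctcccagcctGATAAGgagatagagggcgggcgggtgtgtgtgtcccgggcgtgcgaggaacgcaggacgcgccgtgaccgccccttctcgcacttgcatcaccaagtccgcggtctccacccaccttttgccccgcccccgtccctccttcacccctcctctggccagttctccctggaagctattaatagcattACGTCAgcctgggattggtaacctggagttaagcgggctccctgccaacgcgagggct
The 5 motifs were searched on both strands. TGANTCA was present in 7.81% of 32851 mouse promoters of the same length, with 2 copies each in Cldn4 and Sprr1a. TGACGT was present in 7.51% and GATAAG in 7.44% of them. CAAAGTCCA (0.475%) and CCACACCC (3.56%) were in none of the 9. A match describes these letters and not a bound site.

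Cldn4, a claudin of tight junctions, had 325 CPM in tip spots and 27.1 CPM in other spots of section 1, and 520.0 and 44.9 CPM in section 2 (log2 ratios 3.59 (3.43 to 3.74) and 3.53 (3.43 to 3.64)). It was found in 180 of 209 and 232 of 257 tip spots, and the highest single tip spot reached 1318 and 2302 CPM. Slc23a4, of the family of ascorbate and nucleobase carriers, had 60.2 CPM in tip spots and 4.66 CPM in other spots of section 1, and 86.1 and 6.59 CPM in section 2 (log2 ratios 3.69 (3.33 to 4.06) and 3.71 (3.43 to 3.99)). Both genes stood far above the other spots in each section. Clca4a, a member of the calcium-activated chloride channel regulator family, had 2678 CPM in tip spots and 263 CPM in other spots of section 1, and 3318 and 375 CPM in section 2 (log2 ratios 3.35 (3.30 to 3.4) and 3.14 (3.10 to 3.18)). Ly6m, a GPI-anchored Ly6 family member, had 2935 CPM in tip spots and 409 CPM in other spots of section 1, and 3752 and 569 CPM in section 2 (log2 ratios 2.84 (2.80 to 2.89) and 2.72 (2.69 to 2.76)). Clca4a and Ly6m were seen in nearly every tip spot, in 207 and 208 of 209 in section 1 and in 250 and 254 of 257 in section 2. Lama3, a laminin chain of the basement membrane, had log2 ratios of 3.17 and 3.23, Gprc5a, a retinoic acid inducible receptor, 3.35 and 3.17, and Sprr1a, a cornified envelope protein induced by stress, 3.08 and 3.15.

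**Figure D2:**
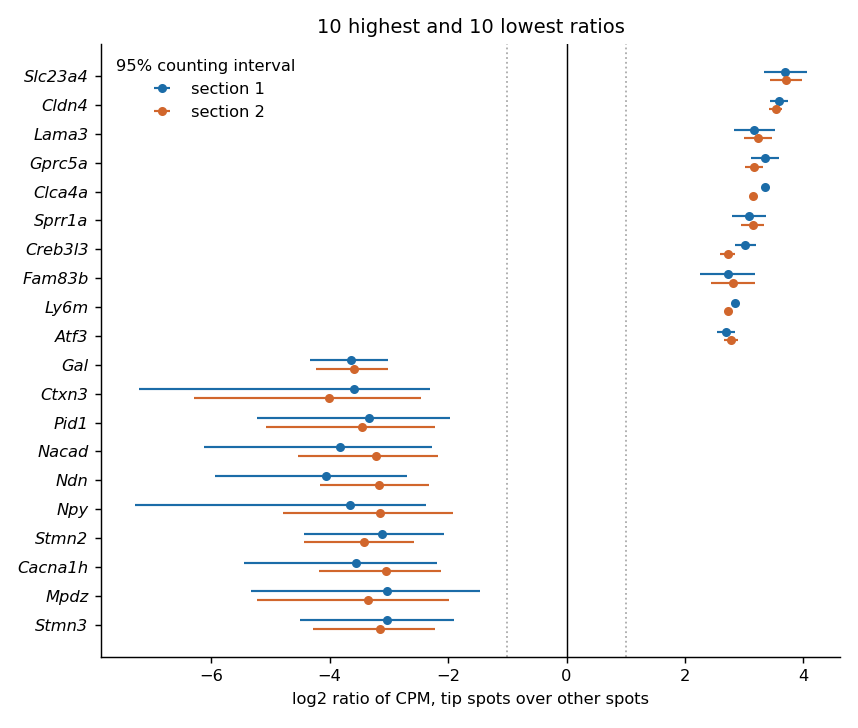
Log2 ratio of CPM in tip over other spots (x axis) of the 10 leading genes at either end of the ranking, for section 1 (blue) and section 2 (orange), with 95% counting intervals; dotted lines mark 2-fold. Every point is past 2-fold, and the low genes, with few UMIs in tip spots, have the wider intervals.

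Of 14 transcription factor genes known from the villus tip, 8 were at least 2-fold higher (9 after centring on the median gene) and 0 lower, against 3.24% (9.24% after centring) and 21.0% of all counted genes, with median ratios of 1.23 and 1.30 against -0.44 and -0.55 over all genes. Besides Creb3l3 and Atf3, these were Klf4, Fos, Fosl2, Jun, Bhlhe40 and Prdm1. Jun, an AP-1 subunit, had 277 CPM in tip spots and 67.2 CPM in other spots of section 1, and 362 and 90.7 CPM in section 2 (log2 ratios 2.04 (1.91 to 2.17) and 2.0 (1.89 to 2.10)). Prdm1 (Blimp1), a transcriptional repressor, had 52.3 CPM in tip spots and 13.0 CPM in other spots of section 1, and 66.1 and 16.2 CPM in section 2. The 6 others included Jund, with log2 ratios of 0.04 and 0.14, and Ier2, with -0.09 and 0.30, both under 2-fold in both sections.

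Of 25 genes of fat absorption counted, 10 were at least 2-fold higher (17 after centring) and 0 lower, beside the same 3.24% (9.24% after centring) and 21.0% (medians 0.87 and 0.90): Apoa1, Apob, Apoc3, Apoc2, Dgat2, Fabp2, Slc27a4, Plin3, Npc1l1 and Apobec1. Apoa1, an apolipoprotein of chylomicrons and HDL, had 10723 CPM in tip spots and 2749 CPM in other spots of section 1, and 12364 and 3547 CPM in section 2 (log2 ratios 1.96 (1.94 to 1.98) and 1.80 (1.78 to 1.82)). Apob, their structural protein, had 1084 CPM in tip spots and 304 CPM in other spots of section 1, and 1569.7 and 433 CPM in section 2. Both were above other spots in each section, as was Fabp2, the intestinal fatty acid binding protein, with log2 ratios of 2.07 and 1.86. Of the enzymes that build triglyceride, Mogat2 had 0.51 and 0.30, Dgat1 0.34 and 0.32 and Dgat2 1.55 and 1.62.

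Of 15 brush border genes, all counted, 8 were at least 2-fold higher (12 after centring) and 0 lower, beside 3.24% (9.24% after centring) and 21.0% of all genes (medians 1.03 and 1.08). They were Ezr, Eps8, Cdhr2, Krt20, Ceacam20, Ceacam1, Clca4a and Clca4b. Cdhr2, a cadherin of the links between microvilli, had 1327 CPM in tip spots and 543 CPM in other spots of section 1, and 1729.9 and 716 CPM in section 2. Krt20, a keratin of mature enterocytes, had 3088 CPM in tip spots and 1199 CPM in other spots of section 1, and 3909 and 1525 CPM in section 2. Its log2 ratios were 1.36 and 1.36, while Myo1a, the microvillus myosin, had 0.27 and 0.27 and Plac8 0.15 and -0.07. Among 16 junction and adhesion genes, 2 were past 2-fold, Cldn4 and Cldn23 (1.24 and 1.55), and 0 lower, while 12 of 16 were higher after centring, beside 9.24% of all genes. Cldn15, a claudin that forms sodium channels in this tissue, had -0.57 and -0.77, beside -0.44 and -0.55 for the median gene.

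Purine handling, which the rule genes Ada and Slc28a2 belong to, was higher in part. Of 12 other genes counted, Nt5e and Xdh were at least 2-fold higher and Slc29a1 2-fold lower (medians 0.54 and 0.57). These counts stand beside 3.24% and 21.0% of all genes, so the lower gene is no result about the list. After centring, 6 of 12 were higher and 0 lower, beside 9.24% and 8.31%. Nt5e (CD73), which makes adenosine from AMP outside the cell, had 42.3 CPM in tip spots and 10.9 CPM in other spots of section 1, and 72.6 and 16.1 CPM in section 2 (log2 ratios 1.96 (1.63 to 2.28) and 2.18 (1.94 to 2.41)). It was detected in 75 of 209 and 102 of 257 tip spots. Xdh, xanthine dehydrogenase at the end of the pathway, had 200.2 CPM in tip spots and 96.6 CPM in other spots of section 1, and 218 and 109 CPM in section 2. The steps between gave smaller values: Pnp had log2 ratios of 0.79 and 0.89 and Gda 0.99 and 0.65. Slc29a1, an equilibrative nucleoside carrier, had 9.63 CPM in tip spots and 21.1 CPM in other spots of section 1, and 8.92 and 22.7 CPM in section 2, and its lower value did not pass 2-fold once ratios were centred on the median gene.

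Of 7 sugar genes counted, 0 passed 2-fold in either direction (medians 0.40 and 0.21), and 3 of 7 were higher after centring. Both this list and the next stand beside 3.24% of all genes higher (9.24% after centring) and 21.0% lower. Of 16 peptide and amino acid genes, 4 were higher (11 after centring) and 0 lower (medians 0.80 and 0.66). Among the higher genes were Mme, a membrane peptidase, Slc3a1, a subunit of a cystine and dibasic amino acid carrier, and Slc6a19, a neutral amino acid carrier. Sis, sucrase-isomaltase, had 546 CPM in tip spots and 564 CPM in other spots of section 1, and 491 and 625 CPM in section 2. Slc5a1, the sodium glucose carrier, did not peak in tip spots of section 2. In bands of the score it had 2109 CPM in the top 10% of spots, 2014 in the next 10%, 1407 in the next 20% and 908 in the lower 60% of section 1. In section 2 the same bands had 2672, 2847, 2129.9 and 1269 CPM. Slc15a1, the peptide carrier, also had its highest band below the tip in section 2, at 1036 against 882 CPM. Creb3l3, in contrast, went from 189.6 to 81.5, 30.9 and 12.3 CPM in section 1, and from 299 to 146, 77.5 and 25.0 CPM in section 2. Nt5e dropped more steeply, from 42.3 to 12.8 CPM and from 72.6 to 22.4 CPM over the first step, and changed less below that.

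**Figure D3:**
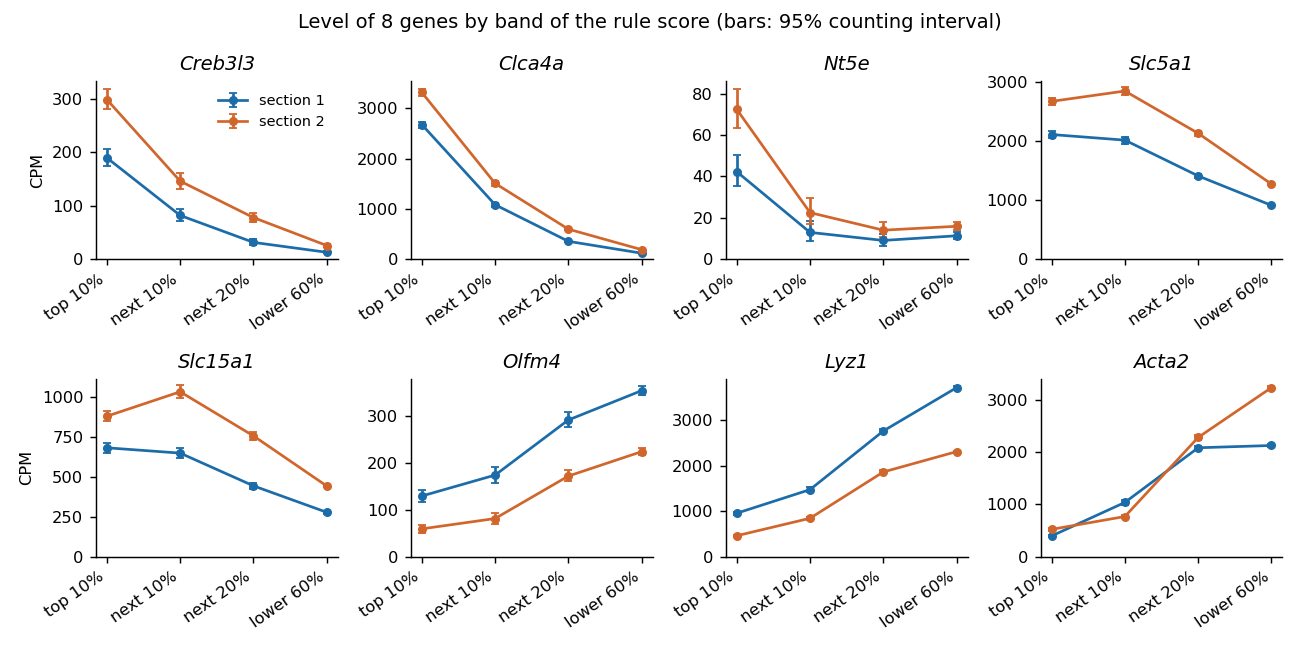
CPM (y axis) of 8 genes in 4 bands of the rule score (x axis), from the top 10% of spots to the lower 60%, in section 1 (blue) and section 2 (orange), with 95% Poisson intervals. Creb3l3, Clca4a and Nt5e are highest in the top band of both sections, Slc5a1 and Slc15a1 are highest in the next 10% of section 2, and Olfm4, Lyz1 and Acta2 are lowest in the top band.

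Markers of the intestinal segment were checked beside these levels. The ileal bile acid binding gene Fabp6 was at 6189.6 and 6112 CPM in tip spots, while lactase, Lct, of the upper small intestine, had 0 and 0.308 CPM there, and Slc2a2, a glucose carrier, had 0 UMIs, which allows up to 1.27 and 1.13 CPM by exact Poisson interval. Of 5 bile acid genes, Slc51b and Fgf15 were at least 2-fold higher in tip spots and 0 lower (medians 0.81 and 0.50), beside 3.24% and 21.0% of all genes. After centring 3 of 5 were higher, beside 9.24%. Fgf15, the hormone through which the ileum signals bile acid uptake to the liver, had 60.6 CPM in tip spots and 14.3 CPM in other spots of section 1, and 114 and 25.1 CPM in section 2 (log2 ratios 2.08 (1.81 to 2.35) and 2.18 (2.0 to 2.37)). Fabp6 itself had log2 ratios of 0.10 and 0.28.

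Lists of signals known at the tip had few genes past 2-fold. Bmp2 was at least 2-fold higher and Bmp3 2-fold lower of 9 genes of the villus stroma (medians -0.13 and -0.41). Bmp2 had 131 CPM in tip spots and 54.1 CPM in other spots of section 1, and 159.9 and 62.8 CPM in section 2. Of 6 BMP target genes, Smad7 was higher (1.57 and 1.48) and Bambi lower (-1.38 and -1.13). Of 8 genes of EGF receptors and ligands, Hbegf (1.39 and 1.40) and Nrg1 (1.19 and 1.28) were higher and 0 lower. Egfr differed between sections, with 0.77 and 1.45. Of 14 genes of cell death and shedding, Casp8 was higher (1.03 and 1.32) and 0 lower, and of 5 genes of antigen presentation 0 passed 2-fold. Of 8 goblet cell genes, Zg16, a mucus lectin, was higher (1.58 and 1.27) and Agr2, needed for mucin folding, lower (-1.06 and -1.25). Of 11 ion transport genes, Slc9a3 and Aqp7 were higher and Slc26a3, Cftr and Slc12a2 lower, 0 of them lower after centring on the median gene. Rbp2, a retinol binding protein, was higher of 6 retinoid genes (2.03 and 1.79), and Gsta4 and Gstm1 were lower of 11 genes of xenobiotic handling. In the tuft, B cell, blood endothelial and iron lists 0 genes passed, and of 4 red cell genes Hba-a1 was lower. The lower genes of these lists (1 of 9 stromal, 1 of 6 BMP target, 1 of 8 goblet, 3 of 11 ion transport, 2 of 11 xenobiotic and 1 of 4 red cell genes) stand beside 21.0% of all counted genes, so that these shares are no result about the lists. After centring, 1 stromal gene and 0 genes of the other lists were lower, beside 8.31% of all genes. Before centring the higher genes stand beside 3.24% of all genes. Centring raised the higher genes to 4 of 8 in the EGF list, 5 of 14 in cell death, 2 of 5 in antigen presentation, 3 of 8 goblet and 4 of 11 xenobiotic genes, beside 9.24%.

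Many crypt genes were lower in tip spots. The counts of lower genes below stand beside 21.0% of all counted genes, and beside 8.31% after centring. After centring, most Paneth genes but few proliferation and stem cell genes were still past 2-fold. Of 10 Paneth cell genes, 9 were at least 2-fold lower (medians -1.52 and -2.16), and 6 of 10 still were with ratios centred on the median gene. Lyz1, lysozyme of Paneth cells, had 953 CPM in tip spots and 3285 CPM in other spots of section 1, and 458 and 2096 CPM in section 2 (log2 ratios -1.79 (-1.84 to -1.73) and -2.19 (-2.27 to -2.12)). Of 10 proliferation genes, 7 were lower (medians -1.32 and -1.75), Mki67 with log2 ratios of -1.41 and -1.66, and 2 of 10 after centring. Of 4 counted stem cell genes, Olfm4 (-1.32 and -1.77), Slc12a2 (-1.43 and -1.88) and Cdca7 (-1.66 and -1.60) were lower, and 1 of 4 after centring. Of 10 genes of villus base defence, 3 were lower (Nlrp6, Gsdmc2 and Gsdmc4), against 21.0% of all counted genes, and 0 were after centring. Reg3b, an abundant antimicrobial lectin, had 36386 CPM in tip spots and 35201 CPM in other spots of section 1, and 25791 and 31515 CPM in section 2.

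The lowest ratios included genes of enteric neurons. The 10 lowest genes were Gal, Ctxn3, Pid1, Nacad, Ndn, Npy, Stmn2, Cacna1h, Mpdz and Stmn3. Gal, a neuropeptide of enteric neurons, had 7.23 CPM in tip spots and 89.6 CPM in other spots of section 1, and 7.38 and 88.8 CPM in section 2 (log2 ratios -3.63 (-4.33 to -3.02) and -3.59 (-4.23 to -3.01)). All 6 smooth muscle genes were at least 2-fold lower, beside 21.0% of all counted genes, and their summed level was 1949 CPM in tip spots against 10529 CPM in other spots of section 1, and 2410.5 against 14077 CPM in section 2. All 7 counted enteric neuron and glia genes were lower, with a summed level of 32.3 CPM in tip spots against 181 CPM in other spots of section 1, and 48.0 against 290.3 CPM in section 2. Of 6 fibroblast genes 5 were lower, and of 4 lymphatic endothelial genes 3, before and after centring, beside 21.0% and 8.31% of all counted genes. No smooth muscle gene was at 0 in tip spots, and single tip spots ranged from 241 to 14612 CPM for the summed list in section 1 and from 482 to 13034 CPM in section 2. The part these lists play in the higher ratios of epithelial genes was not tested. Tip spots were next set against spots outside the tip that were rich in absorptive genes.

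Absorptive spots were the 209 and 257 spots outside the tip with the highest share of 8 nutrient uptake genes (Slc5a1, Slc2a2, Slc2a5, Slc15a1, Sis, Anpep, Dpp4 and Slc6a19). Their median depth was 10642 and 7001 UMIs. Of the tip spots, 22 (10.5%) and 25 (9.73%) would themselves have been in the top 10% by those genes, near the 10% of all spots that such a cut takes. Of 10748 genes counted, the genes of both rules left out, 237 (2.21%) were at least 2-fold higher in tip spots of both sections and 23 (0.214%) lower. The sections differed here: 1001 genes (9.31%) were higher in section 1 and 586 (5.45%) in section 2, 119 (1.11%) and 333 (3.10%) were lower, and the ratios correlated across genes at 0.40. The median gene had log2 ratios of 0.10 and -0.01. With the top 5% of spots as tip spots, 167 genes were higher (87 of them among the 237) and 134 lower (14 of them among the 23).

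Nt5e led this comparison, with 42.3 CPM in tip spots and 5.89 CPM in absorptive spots of section 1, and 72.6 and 9.53 CPM in section 2 (log2 ratios 2.85 (2.07 to 3.73) and 2.93 (2.31 to 3.62)). Cldn4 had log2 ratios of 2.98 and 2.79, Slc23a4 3.01 and 2.70 and Gprc5a 2.63 and 2.27, so these 4 were far above absorptive spots as well. The other leading genes were Rab30, Pla2g5, Adgre1, St3gal1, Prss8 and Nt5c2, another 5'-nucleotidase, with 1.96 and 1.99. Rab30 and Adgre1 were each seen in only 3 and 2 absorptive spots and Pla2g5 in 4 and 10, so their ratios rest on few UMIs. Prss8, a serine protease that activates epithelial sodium channels, had 49.2 CPM in tip spots and 10.2 CPM in absorptive spots of section 1, and 52.0 and 11.6 CPM in section 2. Of 14 transcription factor genes, 4 were at least 2-fold higher and 0 lower, beside 2.21% and 0.214% of all genes: Creb3l3 (1.55 and 1.71), Jun (1.28 and 1.39), Atf3 (1.58 and 2.01) and Prdm1 (1.06 and 1.25). After centring, 3 of 14 were higher, beside 1.80% of all genes. Clca4a was the brush border gene of 15 that passed, with 1.95 and 2.19. Slc29a1, lower than in other spots, was higher than in absorptive spots (1.81 and 2.84), of which only 7 and 3 held it.

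Of the 25 fat absorption genes, 0 passed 2-fold against absorptive spots, near the 2.21% of all genes that were higher (medians -0.04 and 0.11). Their summed level was higher in both sections, with log2 ratios of 0.39 and 0.56, and Apoa1 was at 0.49 and 0.74 and Apob at 0.48 and 0.74. Of 12 peptide and amino acid genes, 0 were at least 2-fold higher and 1 lower, beside 2.21% and 0.214% of all genes, with 0 and 2 genes above 0 in sections 1 and 2 (medians -0.40 and -0.48), although 4 others of that list chose the absorptive spots. The lower gene was Slc1a1, a glutamate carrier, at 119 CPM in tip spots and 271 CPM in absorptive spots of section 1, and 119 and 297 CPM in section 2 (log2 ratios -1.19 (-1.38 to -1.0) and -1.32 (-1.5 to -1.14)). Ccl25, the chemokine that draws lymphocytes to the small intestine, was the villus base gene of 10 that was lower (-1.12 and -1.25). Fabp6 had log2 ratios of -0.73 and -0.37. Among the 10 lowest genes, Epha1, a receptor for ephrins, had -1.95 and -1.82, but Pipox, Ufsp1 and Aqp4 had intervals that reached close to or past 0 and at most 8 UMIs in the tip spots of a section.

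**Figure D4:**
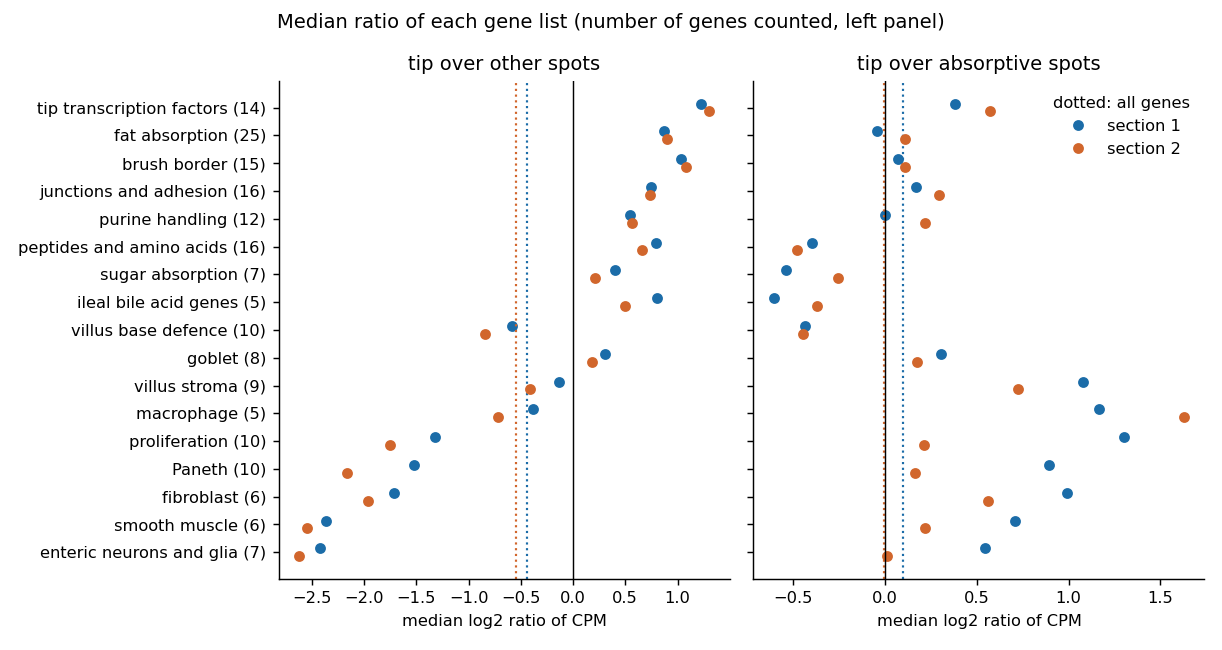
Median log2 ratio of CPM (x axis) of 17 gene lists in tip over other spots (left) and tip over absorptive spots (right), for section 1 (blue) and section 2 (orange); dotted lines are the medians of all counted genes. Crypt, muscle and nerve lists are far below the dotted lines on the left and not on the right, and the transcription factor list is above them in both panels.

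Fibroblast and blood endothelial genes had median ratios above 0 against absorptive spots, 0.99 and 0.56 for 6 fibroblast genes and 1.05 and 0.57 for 5 blood endothelial genes, of which 0 passed 2-fold in both sections. The 4 lymphatic endothelial genes had medians of -0.06 and 0.01, and 0 passed. Macrophage genes had 3 of 5 at least 2-fold higher, C1qb, Lyz2 and Adgre1 (medians 1.17 and 1.63), beside 2.21% of all counted genes. After centring 2 of 5 were, beside 1.80%. Adgre1 was seen in only 3 and 2 absorptive spots. The summed level of the macrophage list was 160.3 CPM in tip spots against 67.9 CPM in absorptive spots of section 1, and 143 against 65.9 CPM in section 2. Against other spots the same list was not higher (medians -0.38 and -0.72). Smooth muscle genes summed to 1949 CPM in tip spots against 1187 CPM in absorptive spots of section 1, and 2410.5 against 2102 CPM in section 2, and Paneth genes to 20319 CPM in tip spots against 12532 CPM in absorptive spots of section 1, and 8275 against 7659.5 CPM in section 2. Proliferation genes had medians of 1.30 and 0.21 over absorptive spots, with 10 and 9 of 10 above 0 and 0 past 2-fold in both sections. Villus stroma genes had 1.08 and 0.72, with 8 of 9 above 0 in each section and 1 past 2-fold. Red cell genes had 0.71 and 2.01, with 1 of 4 past 2-fold. The part of these cells in the higher genes was not tested.

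Lgr5, a receptor of crypt stem cells that is also known from telocytes beneath the villus tip, was the stem cell gene of 4 that was at least 2-fold higher in tip than in absorptive spots in both sections, beside 2.21% of all counted genes. Tip spots had 37 and 24 Lgr5 UMIs, or 12.7 (8.96 to 17.5) and 7.38 (4.73 to 11) CPM by exact Poisson interval. Other spots had 8.53 and 7.19 CPM, and absorptive spots 2.35 and 2.07 CPM. The mean log2 ratio of tip over other spots, 0.31, turned to -0.43 with the top 5% of spots and to -0.25 with spots chosen by Apoa4 alone, and that over absorptive spots, 2.13, to 0.56 with the top 5%. Olfm4, in contrast, was at 129 against 322 CPM and 59.0 against 201 CPM. A further split was chosen after these values were seen. In tip spots without any UMI of Olfm4, Ascl2, Cdca7 or Gkn3, Lgr5 was at 24.2 (13.9 to 39.4) CPM in section 1, from 16 UMIs in 10 of 54 spots, and at 12.9 (7.67 to 20.4) CPM in section 2, from 18 UMIs in 11 of 129 spots. Other spots without those UMIs had 3.45 (2.11 to 5.33) and 3.84 (2.74 to 5.23) CPM. The intervals of tip and other spots did not overlap in either section. Pdgfra, a marker of telocytes and other stroma, was at 43.9 against 29.4 CPM in the same spots of section 1 and at 18.7 against 34.0 CPM in section 2, so it lay on opposite sides in the sections. With the top 5% of spots as tip spots, the value was 19.3 CPM in section 1, from 6 UMIs, and 2.49 CPM in section 2, from 2 UMIs, below the 5.09 CPM of other spots there.

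**Figure D5:**
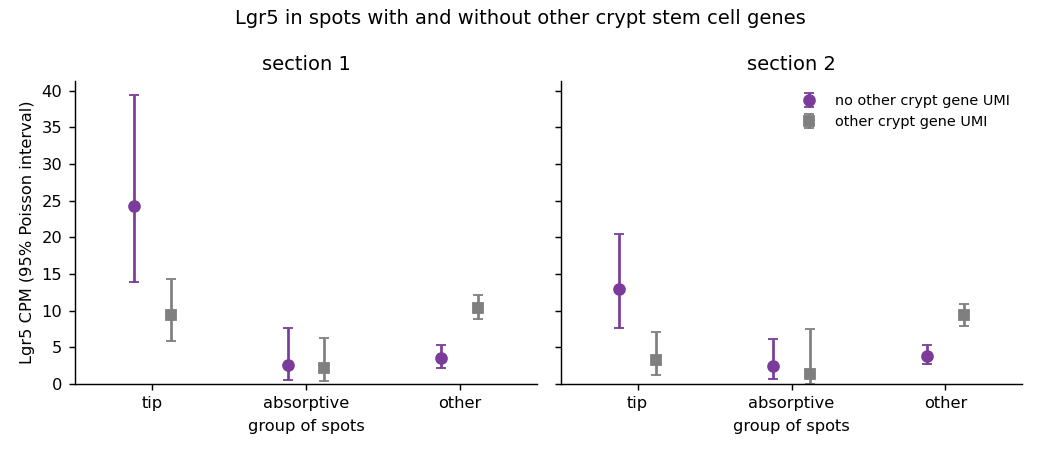
Lgr5 level in CPM (y axis) with 95% Poisson intervals in tip, absorptive and other spots (x axis), split by whether the spot held any UMI of Olfm4, Ascl2, Cdca7 or Gkn3 (grey squares) or none (purple circles), for both sections. Among spots without these UMIs, tip spots are highest, at 24.2 and 12.9 CPM.

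The large intestine, which has no villi, gave the background of the rule. Apoa4 had 0 UMIs in both large intestine sections, which allows up to 0.0894 and 0.0842 CPM by exact Poisson interval. Ada was at 13.8 and 14.3 CPM, against 186 and 294 CPM over the whole small intestine sections, and Slc28a2 at 2.42 and 2.49 against 126 and 183 CPM. The highest score of a large intestine spot was 369 in section 1 and 1698 in section 2, and 1 spot in all passed the section 2 threshold. Nt5e did not follow this order, with 60.1 and 58.8 CPM in large intestine sections against 14.7 and 22.2 CPM in small intestine sections.

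Single cells gave a readout that the spots did not enter. The library held small intestinal cells sorted alive and enriched for stem cells and lymphatic endothelium, from C57BL/6 and Lgr5-eGFP-ires-CreERT2 mice. Cells were kept from 500 detected genes upwards if mitochondrial UMIs did not exceed 20%. Of the 2756 kept, 848 had UMIs of at least 3 of the 8 nutrient uptake genes. Among these, 135 had an Ada or Slc28a2 UMI (median depth 33425 UMIs) and 713 had none (32240). With 1 library there is no replicate, and no doublets were removed. Ly6m was at 77.7 against 1.09 CPM (log2 ratio 6.15, 5.6 to 6.76) in cells with and without such UMIs, from 18 and 21 cells. Clca4a was at 120.1 against 8.76 CPM (log2 ratio 3.78, 3.56 to 4.0) and Cldn4 at 25.2 against 6.07 CPM (log2 ratio 2.05, 1.71 to 2.40). Slc23a4, Lama3 and Gprc5a had log2 ratios of 2.04, 2.22 and 2.95. These leading genes of the tip spots were higher in the cells with Ada or Slc28a2 UMIs too, though few cells carried them, and with at least 5 nutrient uptake genes required of a cell Lama3 was at 0.68 (-0.73 to 1.88) from 7 UMIs.

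Over all named genes that were at least 2-fold higher in tip than in other spots, the direction in single cells depended on which cells were taken. Of 50 such genes (those that chose spots or cells left out), 20 had an interval above 0, 21 below 0 and 9 across it (median log2 ratio -0.04), while over all 9895 genes with at least 100 UMIs in these cells 32.4% were above and 18.2% below (median 0.12). With up to 50% mitochondrial UMIs, 24 were above and 14 below (median 0.16), beside 30.4% and 18.4% of 10155 genes (median 0.09). With at least 5 nutrient uptake genes per cell, 23 were above and 6 below (median 0.33), beside 16.4% and 17.2% of 7926 genes (median -0.00). Cldn23 was below 0 under all 3 filters, at -0.75, -0.65 and -0.99. Fabp2 (-0.42) and Krt20 (-0.37) turned to 0.13 and 0.23 with at least 5 nutrient uptake genes, and Dgat2 (-0.49) and Xdh (-0.45) had 0.04 and -0.06 there, with intervals across 0. These 5 genes were chosen after their values were seen. Apoa4, which did not enter the choice of cells, had a log2 ratio of 1.46 (1.39 to 1.53), with 25.5% of its UMIs in 1 cell. Atf3 had 0.86 (0.56 to 1.16), Fam83b 0.82 (0.51 to 1.12), Jun 0.75 (0.64 to 0.85), Klf4 0.54 (0.38 to 0.69) and Fos 0.31 (0.19 to 0.43), all above 0 and under 2-fold. With at least 5 nutrient uptake genes per cell, Atf3 (1.5), Klf4 (1.42), Jun (1.32) and Fam83b (1.14) were past 2-fold, and Atf3 was at 1.09 with up to 50% mitochondrial UMIs. Nt5e was at 4.17 against 0.350 CPM (log2 ratio 3.57, 2.40 to 4.87), but from 22 UMIs in 4 cells, 40.9% of them in 1 cell. Creb3l3 was at 78.0 against 100.4 CPM (log2 ratio -0.36, -0.52 to -0.21) and Apoa1 at 1859 against 2136 CPM (log2 ratio -0.20, -0.23 to -0.17), and both values moved to or past 0 under other cell filters. With cells of up to 50% mitochondrial UMIs, Creb3l3 had -0.10 (-0.23 to 0.04) and Apoa1 0.02 (-0.00 to 0.05). With at least 5 nutrient uptake genes per cell, Creb3l3 had 0.02 (-0.16 to 0.20) and Apoa1 0.36 (0.33 to 0.39). All 6 stem cell genes were higher in the cells with Ada or Slc28a2 UMIs: Ascl2 (1.91), Olfm4 (1.21), Slc12a2 (1.16), Lgr5 (1.08), Cdca7 (1.06) and Gkn3 (0.91). With at least 5 nutrient uptake genes per cell, all 6 were past 2-fold, from 2.15 to 3.01. Their median there was 2.57, beside 0.33 for the 50 named genes. So these cells differed from the rest in all 6 stem cell genes, while the 50 named genes went both ways. The part of the stem cell genes in the other ratios was not tested. In the sections Olfm4 was also higher in tip than in absorptive spots (log2 ratios 1.25 (0.97 to 1.54) and 0.63 (0.27 to 1.01)), and lower than in all other spots (-1.32 and -1.77). Defa24, a Paneth cell defensin, was found in 135 of 135 and 712 of 713 of these cells, and the part of such RNA in these values was not tested.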

How the data were processed

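Visium spots and single cells of mouse small intestine were analysed from the count matrices the authors deposited, which hold whole UMI counts per gene and barcode without normalization. Per the file headers, Space Ranger 1.2.1 made the Visium matrices and Cell Ranger 6.0.1 the single-cell ones, and the submitters' processing notes name build mm10. The matrices list only barcodes called as spots or cells, and spot positions were not used here. UMIs were summed per group and section and scaled to CPM with Python 3.11.15, numpy 2.4.6, scipy 1.17.1 and pandas 2.3.3. In a log2 ratio a count under 3 was set to 3. No test between groups was made, since sections are technical duplicates. Genes with a symbol found more than once were left out of counts. Named genes are the members of 36 lists and the 10 highest and 10 lowest ratios of each comparison, ranked by the section nearer to 0, leaving out mitochondrial, ribosomal protein and unnamed gene models. The spot rule, its genes and the lists were chosen with earlier results of these data known. Alternatives varied the spot minimum, the share taken, the rule genes, the scaling, the gene filter and the section, and for single cells the mitochondrial limit and the number of nutrient uptake genes. The procedure was tested on simulated counts. Depth was 24356162 and 30091604 UMIs per small intestine section. Values of some list members are not reported here.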

Additional observations from a re-analysis of the deposited data

How the results depend on the processing

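Counts of genes past 2-fold were recomputed under 15 alternatives, of which a common threshold of 1000 rule UMIs per 1000000 in both sections (199 and 370 tip spots) was chosen after seeing the data. Centring log2 ratios on the median gene gave 994 genes higher in tip than in other spots, and 894 lower, since the median there was -0.44 and -0.55. It gave 36 genes lower than in absorptive spots, where the median was 0.10 and -0.01. The 23 genes lower than in absorptive spots became 134 with the top 5% of spots, 45 with the mean of each spot's CPM and 36 with genes of at least 20 UMIs. With either section left out, that is with 1 section alone, 2644 to 3485 genes were lower than in other spots, 586 to 1001 higher and 119 to 333 lower than in absorptive spots, and 422 to 434 higher than in other spots. In these single sections 1 condition is met in place of 2. The 10 largest ratios named against other spots kept their direction. Of 160 ratios of named genes past 2-fold, recomputed under the 15 alternatives, 1 reversed: Aqp4 against absorptive spots, at 0.41 with the top 20% of spots. Over all 629 ratios, 1821 of 9435 recomputed values moved by more than the spread between the sections. Of the 237 genes higher than in absorptive spots, 87 were shared with the 167 of the top 5%. With the 263 of the top 20% 104 were shared, and with the 214 of the mean of each spot's CPM 132. So these last counts, though nearer to 237, held different genes in part. No paired analysis was possible because the 2 sections are technical duplicates, which give no replicate pairs to test; each ratio is taken within its section. Depth limits the lowest ratios, which rest on few UMIs in tip spots.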

Other observations

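Summed levels of some hormone genes of enteroendocrine cells differed between the sections. Sct, secretin, had 151 CPM in tip spots and 92.6 CPM in other spots of section 1, and 264 and 77.4 CPM in section 2 (log2 ratios 0.70 and 1.77). It was seen in 75.6% of tip and 40.2% of other spots of section 1 and in 65.8% and 34.9% in section 2, where 1 tip spot reached 9115 CPM. After thinning to 2000 UMIs, Sct was seen in 24.0% and 12.6% in section 1, and in 25.7% and 10.5% in section 2. The part of single spots in its summed level was not tested. Nts, neurotensin, had log2 ratios of 0.53 and 1.42, and Pyy, peptide YY, had -0.44 and 1.22, so that the summed Pyy level lay on opposite sides of 0. The median tip spot was at 0 CPM in both sections and 1 tip spot of section 2 reached 7712 CPM. By spots with a Pyy UMI the sections did not differ in direction, with 39.2% of tip and 22.1% of other spots in section 1 and 24.9% and 21.0% in section 2 (in 7.21% of tip spots and 6.36% of other spots in section 1, and in 8.16% and 6.75% in section 2 after thinning to 2000 UMIs). Sst, somatostatin, was lower in both (-1.90 and -2.48), as was Gcg, proglucagon (-1.14 and -1.13). The difference between the sections was not tested.

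Of 8 T cell and intraepithelial lymphocyte genes and 5 plasma cell genes, 0 passed 2-fold in both sections. Gzma, a granzyme of intraepithelial lymphocytes, had log2 ratios of 0.81 and 0.20 and Gzmb 0.60 and 0.99. Igha, the heavy chain of IgA, had 3556 CPM in tip spots and 6149 CPM in other spots of section 1, and 2122 and 6299 CPM in section 2 (log2 ratios -0.79 and -1.57).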
